A study of Mus musculus with 64 samples.

Results

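The Cyp2c cytochromes described here are 10 genes, Cyp2c29, Cyp2c37, Cyp2c38, Cyp2c39, Cyp2c40, Cyp2c44, Cyp2c50, Cyp2c54, Cyp2c69 and Cyp2c70, out of 23338 genes counted in each library. The members were chosen by name for their pattern across developmental stages and between adult sexes, so their adult sex difference and their adult level against fetal liver are given as descriptions with no test. The sex difference in fetal liver and the variation between animals of one sex were not used in that choice.

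RNA was sequenced from C57BL/6 J mice at 4 stages, with the sex of each sample taken from its label. Whole eight-cell embryos, 6 of each sex, were each made into 1 library, and were joined by 2 male and 2 female embryonic stem (ES) cell lines grown in 2i medium, 12 male and 12 female fetal livers from late gestation, and 12 male and 12 female adult livers. No animal or line carried an engineered allele or received a treatment according to the labels. The livers were whole tissue on standard chow, the ES lines were derived from eight-cell embryos, and the labels do not say which fetuses were littermates.

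Cytochrome P450 enzymes of the Cyp2c subfamily sit in the endoplasmic reticulum, above all of hepatocytes, and use electrons from the reductase Por to oxidise drugs, steroids, bile acids, retinoids and arachidonic acid. Several rodent members are known as sex-dependent genes of adult liver, where the pulse pattern of growth hormone differs between males and females and acts through Stat5b. Cyp2c29 is a major hepatic form that responds to the nuclear receptor CAR, Cyp2c70 makes muricholic acids from chenodeoxycholic acid, and Cyp2c44 is an arachidonate epoxygenase.

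Reads on genes ranged from 1567583 to 10386931 per library and from 1567583 to 8499603 among livers. All 8 hepatocyte markers examined (Alb, Apoa1, Apob, Ttr, Fga, Ahsg, Trf and Serpinc1) had reads in both sexes of fetal and of adult liver. In 8 adult libraries, 4 of each sex, and in 2 fetal male libraries under 40% of mapped reads fell on genes. Fetal female 22 stood apart as the only fetal liver with more than 6 reads of Cyp2c29, and fetal female 14 as the only one with more than 3 reads of Cyp2c65, beside a summed level of 4 intestine markers of 606 CPM (the usual depth-scaled count, relative to all reads on genes). In the other fetal livers Cyp2c65 reached at most 0.363 CPM. Results for the members that rest on these libraries are given with and without them, and the fetal marker calls only with them.

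Of the members, 9 lie within a run of 15 annotated Cyp2c genes on mouse chromosome 19 (chr19:39007019-40187333, GRCm38, 1180 kb), and Cyp2c44, which current annotation names Cyp2c23, lies 3.82 Mb beyond its end. Every member has 9 exons in the transcript used. Coding sequences of member pairs were between 65.8% and 97.9% identical, with a median of 78.6% over 45 pairs. Cyp2c40 and Cyp2c69, neighbours on the minus strand, were the most alike pair of members, with 31 differing bases among 1473 aligned. Cyp2c37 and Cyp2c50 differed at 57 of 1470 coding bases, and Cyp2c38 and Cyp2c39 at 85.

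The resemblance bears on every value for these genes, because a read was counted only where its alignment was unique. Among stretches of 50 bases in each transcript, 72.1% of those of Cyp2c40 also occur in a transcript of another gene, 42.1% in Cyp2c69. The share was 54.8% for Cyp2c69, 30.7% for Cyp2c50, 30.1% for Cyp2c37 and 25.7% for Cyp2c54. It was 12.05% for Cyp2c39, 7.45% for Cyp2c38, 2.08% for Cyp2c29 and 0 for Cyp2c44 and Cyp2c70. With stretches of 100 bases, 44.1% of Cyp2c40 and 36.3% of Cyp2c69 still occurred elsewhere. Levels of Cyp2c40 and Cyp2c69 are therefore uncertain in the split between them and the near-identical Cyp2c67 and Cyp2c68, while those of Cyp2c44 and Cyp2c70 rest on sequence found in no other annotated transcript. The 60-base coding window within 1 exon where Cyp2c40 and Cyp2c69 differ most is printed to show how little separates them, with the 6 differing bases in capitals.
Cyp2c40 (chr19:39777967-39778026, minus strand): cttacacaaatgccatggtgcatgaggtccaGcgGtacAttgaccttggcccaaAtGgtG
Cyp2c69 (chr19:39851082-39851141, minus strand): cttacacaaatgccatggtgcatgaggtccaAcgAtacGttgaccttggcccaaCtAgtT

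The members were scarcely detected before the liver stages. In the eight-cell embryos 1 read fell on a member in all, a read of Cyp2c44 in male embryo 2, so that 9 of 10 members had no read in any of the 12 embryos. In each embryo library, 3 reads would correspond to between 0.388 and 0.644 CPM. In the ES lines the summed level of the 10 members was 0.907 ± 0.204 CPM for the 2 male lines and 0.918 ± 0.0124 CPM for the 2 female lines (mean ± SD). Those 37 reads were 14 of Cyp2c29, 12 of Cyp2c44, 10 of Cyp2c70 and 1 of Cyp2c39. No line held more than 5 reads of a member, against 3 reads taken as the floor.

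In adult liver the 10 genes together took 0.464% ± 0.032 of the reads in males (SD, n = 12) and 0.687% ± 0.053 in females (SD, n = 12). On a scale normalised over all 48 livers, the summed level was between 4863 and 6064 CPM in males and between 7181 and 9332 CPM in females. The ranges did not overlap. Cyp2c29, Cyp2c44, Cyp2c50, Cyp2c54 and Cyp2c70 contributed 5123 ± 307 CPM in males and 5028 ± 578 CPM in females, and the remaining 5 genes 544 ± 106 CPM in males and 3316 ± 299 CPM in females (SD, n = 12 in each). As a share of the summed level, those 5 genes were 9.55% ± 1.44 in males and 39.9% ± 3.69 in females.

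**Figure D1:**
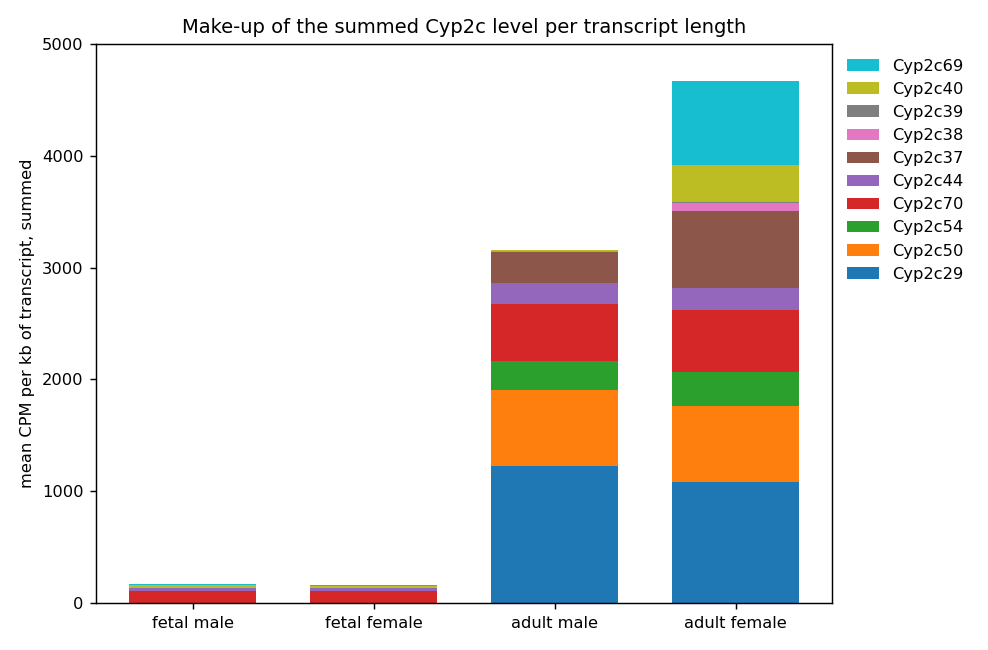
Stacked bars of the mean level of the 10 Cyp2c genes in CPM per kb of transcript (vertical axis, linear from 0) in 12 male and 12 female fetal and adult livers each. The adult bars share similar blocks of Cyp2c29, Cyp2c50, Cyp2c54, Cyp2c70 and Cyp2c44, while Cyp2c69 and Cyp2c40 are visible blocks in adult females only.

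Ordered by level per transcript length, Cyp2c29 led in both sexes, with 1220 ± 111 CPM per kb in males and 1082 ± 154 CPM per kb in females (SD, n = 12). The whole transcript length was used, with no allowance for stretches shared with other genes, where reads may go uncounted. Of 100-base stretches, 36.3% were shared in Cyp2c69, 44.1% in Cyp2c40 and 0 in Cyp2c29. Levels of Cyp2c69 and Cyp2c40 may therefore be too low, and the lead of Cyp2c29 over Cyp2c69 in females is not established. In males Cyp2c50 and Cyp2c70 followed at 687 ± 77.4 and 509 ± 138 CPM per kb, and their ranges of mean ± SD overlapped. Cyp2c37, Cyp2c54 and Cyp2c44 came next at 272 ± 55.7, 255 ± 51.9 and 194 ± 23.7 CPM per kb, each with a range of mean ± SD that overlapped that of its neighbour. Cyp2c38 stood apart from both neighbours at 12.9 ± 3.52 CPM per kb, and Cyp2c40, Cyp2c69 and Cyp2c39 ended the male order at 3.99, 1.23 and 0.883 CPM per kb. In females the second place was taken by Cyp2c69 at 751 ± 142 CPM per kb, followed by Cyp2c37 at 696 ± 96.6, Cyp2c50 at 681 ± 144 and Cyp2c70 at 556 ± 92.8, each overlapping its neighbour by the same measure. Cyp2c40 and Cyp2c54 also overlapped, at 337 ± 71.5 and 301 ± 59.1 CPM per kb. Cyp2c44, Cyp2c38 and Cyp2c39 were the lowest in females and each stood apart from the next.

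Among the members with similar levels in both adult sexes, Cyp2c29 had a lowest, median and highest level of 1843, 2169 and 2489 CPM in males and of 1455, 1923 and 2327 CPM in females. The log2 ratio of male to female was 0.15 ± 0.07 (SE). Cyp2c50, an epoxygenase closely related to Cyp2c54, ran from 953 through 1265 to 1400 CPM in males and from 608 through 1228 to 1551 CPM in females, with a log2 ratio of -0.01 ± 0.10. The lowest value belonged to female 18, which also had the lowest female level of Cyp2c29, Cyp2c37, Cyp2c38, Cyp2c39 and Cyp2c54 and the highest of Cyp2c40 and Cyp2c69.

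Cyp2c44 lay between 315 and 456 CPM in males, with a median of 382, and between 311 and 489 CPM in females, with a median of 367. Its log2 ratio was -0.02 ± 0.07, and its ranges overlapped almost throughout. Cyp2c70 lay between 514 and 1293 CPM in males and between 779 and 1299 CPM in females, with the same median of 889 CPM in both and a log2 ratio of -0.15 ± 0.13. Cyp2c54 lay between 281 and 576 CPM in males (median 463) and between 316 and 734 CPM in females (median 540), with a log2 ratio of -0.25 ± 0.12. The estimate for Cyp2c54 was -0.06 ± 0.13 in the 16 libraries with at least 40% of mapped reads on genes and -0.65 ± 0.14 in the 8 others, and that for Cyp2c70 was -0.36 ± 0.16 and 0.26 ± 0.11 in the same subsets.

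The 5 members with higher adult female levels, Cyp2c37, Cyp2c38, Cyp2c39, Cyp2c40 and Cyp2c69, did not overlap between the sexes. A gene was called sex-different at an adjusted p under 0.1 in edgeR's quasi-likelihood test with Benjamini-Hochberg adjustment and a log2 ratio beyond 0.5 in size. By that rule all 5 were called higher in females, beside 6.48% of the 10372 genes tested, 3.01% were called higher in males, 9.49% in either direction, and 2.82% had sexes that did not overlap. Since the members were selected on this contrast, nothing is read from the count.

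Cyp2c37, which oxidises arachidonic acid, was present at high level in both sexes, from 295 through 496 to 636 CPM in males and from 846 through 1295 to 1509 CPM in females. The log2 ratio was -1.38 ± 0.10. Cyp2c38 ran from 21.1 through 36.6 to 52.6 CPM in males and from 103 through 186 to 253 CPM in females, with a log2 ratio of -2.35 ± 0.14. For Cyp2c39, a retinoic acid hydroxylase, the values were 0.335, 1.42 and 3.50 CPM in males and 11.1, 16.7 and 22.6 CPM in females, and the log2 ratio was -3.48 ± 0.20. The male values of Cyp2c39 were 1 to 7 reads per library, close to the floor of 3 reads.

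Cyp2c40 ran from 1.44 through 5.52 to 17.5 CPM in males, on 2 to 29 reads per library, and from 394 through 590 to 849 CPM in females, on 561 to 1890 reads. The log2 ratio was -6.46 ± 0.23. Cyp2c69 ran from 0 through 1.78 to 5.36 CPM in males, on 0 to 16 reads, and from 864 through 1246 to 1613 CPM in females, on 1231 to 3637 reads. Its log2 ratio of -9.27 ± 0.24 was the largest among the members, and male 11 had no read of it. Per library, the ratio of Cyp2c40 to Cyp2c69 reads in adult females was between 0.437 and 0.605. The log2 ratios of the 5 genes kept their sign in the libraries with at least 40% on genes and in those with less, at -6.76 ± 0.23 and -5.74 ± 0.42 for Cyp2c40 and at -9.45 ± 0.30 and -8.79 ± 0.28 for Cyp2c69.

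**Figure D2:**
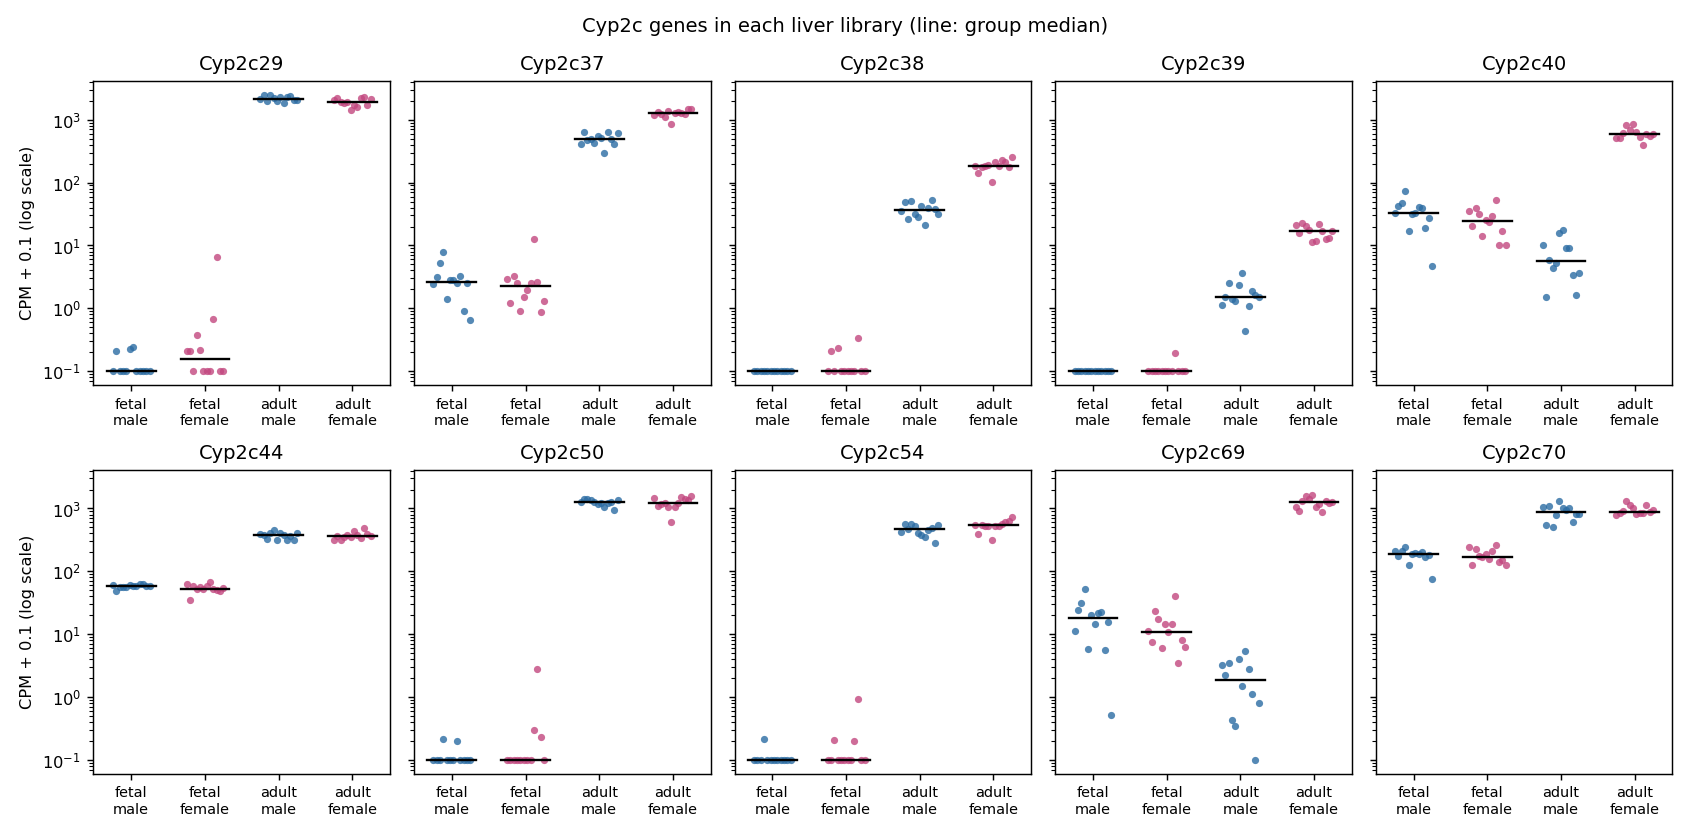
Level of each Cyp2c gene in every liver library (vertical axis, CPM plus 0.1 on a log scale), with 12 points for each of fetal male, fetal female, adult male and adult female liver and a line at each group's median. Cyp2c40 and Cyp2c69 sit higher in fetal than in adult males and highest in adult females, and 1 fetal female point of Cyp2c29, Cyp2c50 and Cyp2c54 lies above the rest of its group.

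In fetal liver the sexes could be compared with a test. Of the 10 members, 5 passed the filter on low counts, Cyp2c37, Cyp2c40, Cyp2c44, Cyp2c69 and Cyp2c70, and 0 of the 5 were called, beside 4.64% of the 12930 genes tested. None of the 5 had sexes that did not overlap, beside 1.91% of genes. By edgeR 1 of the 5, Cyp2c44, had an unadjusted p under 0.05, as did 5235 of all genes. DESeq2 called 0 of these 5 members, and no other setting called any of them.

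Cyp2c40 ran from 4.57 through 32.9 to 73.1 CPM in fetal males and from 9.92 through 24.5 to 53.2 CPM in fetal females. The log2 ratio of male to female was 0.43 ± 0.31 (edgeR adjusted p = 0.319), with a 95% interval from -0.18 to 1.04. Cyp2c69 ran from 0.416 through 17.9 to 53.1 CPM in males and from 3.39 through 10.9 to 40.8 CPM in females, with a log2 ratio of 0.50 ± 0.43 (edgeR adjusted p = 0.408) and an interval from -0.35 to 1.34. The sexes overlapped in both genes, and male 4 and female 21 were the highest of their groups.

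Cyp2c37 ran from 0.554 through 2.55 to 7.79 CPM in fetal males and from 0.784 through 2.13 to 12.7 CPM in fetal females (log2 ratio 0.05 ± 0.43, edgeR adjusted p = 0.949). Cyp2c70 was the highest member per transcript length in fetal liver, at 105 ± 25.1 CPM per kb in males and 106 ± 27.0 in females, and its log2 ratio was 0.02 ± 0.15 (edgeR adjusted p = 0.951). Cyp2c44 followed at 30.4 ± 2.04 and 28.1 ± 4.2 CPM per kb, with a log2 ratio of 0.14 ± 0.06 (edgeR adjusted p = 0.102) and an interval from 0.01 to 0.27. Its range of 48.7 to 63.5 CPM in males lay within that of 35.1 to 66.6 CPM in females. The lowest of these was female 14, and without it the log2 ratio was 0.10 ± 0.05 (edgeR adjusted p = 0.147). The share of reads on no annotated gene did not overlap between the fetal sexes, at 39.9% to 49.0% in males and 34.1% to 38.1% in females. With the percentage of mapped reads that fell on genes added to the fit, the log2 ratios of the 5 members lay between -0.78 and -0.04 and none was called. Beside these fetal differences, 3 of 5 bile duct markers and both tested intestine markers, Fabp2 and Vil1, were called higher in females. These calls include female 14 and are not given without it. Of the bile duct markers 1 was called higher in males, as was Col1a1, 1 of 5 stellate and fibroblast markers. Summed intestine markers ranged from 3.64 to 8.30 CPM in fetal males and from 4.57 to 606 CPM in fetal females, and summed bile duct markers from 25.9 to 61.7 and from 24.8 to 292 CPM, the highest of both in female 14. Summed stellate and fibroblast markers ranged from 466.2 to 768 CPM in males and from 449 to 1106 CPM in females. Their part in the fetal levels was not tested.

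**Figure D3:**
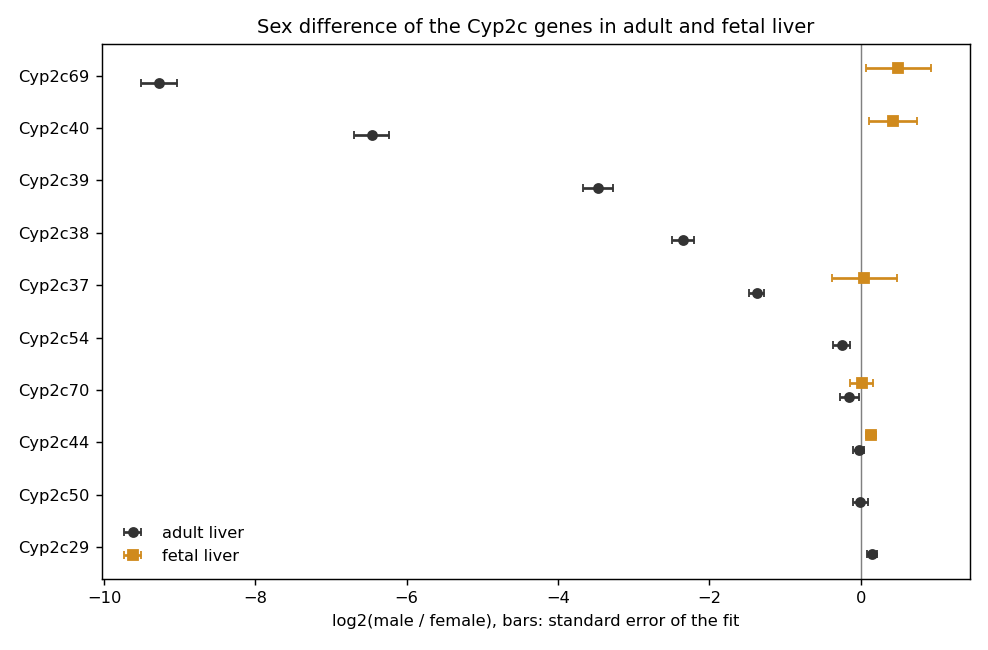
Log2 ratio of male to female level with its standard error (horizontal axis) for the 10 Cyp2c genes in adult liver (circles) and for the 5 that passed the filter on low counts in fetal liver (squares), 12 livers of each sex and stage. Adult values run from -9.27 for Cyp2c69 to 0.15 for Cyp2c29, and the fetal values lie between 0.02 and 0.50.

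Cyp2c29, Cyp2c38, Cyp2c39, Cyp2c50 and Cyp2c54 were close to undetected in fetal liver. The 12 fetal males held 3 reads of Cyp2c29, 2 of Cyp2c50, 1 of Cyp2c54 and none of Cyp2c38 or Cyp2c39. The 12 fetal females held 65 reads of Cyp2c29, of which 54 came from female 22, 25 of Cyp2c50, of which 22 came from female 22, and 9 of Cyp2c54, of which 7 came from female 22. In that library Cyp2c29 stood at 6.54 CPM, Cyp2c50 at 2.66 and Cyp2c54 at 0.847, which were 0.339%, 0.216% and 0.158% of the adult female means. The same library had the lowest female levels of Cyp2c40 and Cyp2c69, while its Cyp2c37 level of 2.54 CPM lay above the female median and it held no read of Cyp2c39.

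Between fetal and adult liver the members followed 3 courses. In whole tissue, fewer hepatocytes and less RNA per hepatocyte cannot be told apart. Summed hepatocyte markers were 43944 to 59140 CPM in fetal males and 43399 to 55021 CPM in fetal females, against 73116 to 94678 CPM in adult males and 85430 to 108210 CPM in adult females. Summed erythroid markers were 3573 to 5552 CPM over all fetal livers and 18.1 to 237 CPM over all adult livers. The globin markers Hbb-b1 and Hba-a1 had no read in adult liver or in fetal females 14 and 22 and male 12. Hba-a1 had none in any fetal female. Yet fetal females 14 and 22 and male 12 had summed erythroid markers of 3764, 5276 and 5171 CPM from other genes. The 2 globin rows, which hold uniquely aligned reads only, are therefore not read as a measure of globin RNA. In males 8 members were called higher in adults and 2 lower, beside 32.6% and 36.2% of the 13026 genes tested. In females all 10 were called higher, beside 31.1%. Since the stage labels are part of the rule that chose the members, nothing is read from these counts. Over both sexes 47.3% of called genes were higher in adults, and 18.3% when libraries were scaled to hepatocyte markers, a scaling that moved the median log2 change of all genes from -0.05 to -0.89 and left the direction of each member in each sex as it was.

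The first course was a rise from near absence in both sexes. Cyp2c38 was at least 951-fold higher in adult than in fetal males and Cyp2c39 at least 41.1-fold, against a floor of 3 reads over the fetal group. For Cyp2c50 the ratio of adult to fetal males was 71948, with a counting interval from 19917 to 594101. Cyp2c54 had a ratio of 49109 (8814 to 1939698) and Cyp2c29 one of 68907 (23579 to 334137), each on 3 fetal reads or fewer, with intervals that cover counting error only. In females the ratio of means for Cyp2c29 was 2997 with female 22 and 17833 without it. For Cyp2c50 it was 4955 with female 22 and 41748 without it, and for Cyp2c54 it was 6143 and 29327. Cyp2c37 rose from a level found in every fetal liver, by 7.39 ± 0.28 on the log2 scale in males and by 8.75 ± 0.29 in females.

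The second course was a moderate rise shared by both sexes. Cyp2c44 rose by 2.67 ± 0.07 on the log2 scale in males and 2.79 ± 0.07 in females. Cyp2c70 rose by 2.28 ± 0.15 and 2.40 ± 0.15. These 2 genes, which share no 50-base stretch with other transcripts, made up 21.4% and 61.1% of the summed fetal male level and 6.58% and 15.5% of the adult male level.

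The third course was opposite in the sexes. In males Cyp2c40 fell by 2.31 ± 0.36 on the log2 scale and Cyp2c69 fell by 3.26 ± 0.58. In females Cyp2c40 rose by 4.55 ± 0.27 and Cyp2c69 by 6.49 ± 0.35. The mean of Cyp2c40 went from 34.0 ± 17.3 to 7.20 ± 5.22 CPM in males and from 25.7 ± 12.9 to 607 ± 129 CPM in females (SD, n = 12). That of Cyp2c69 went from 18.8 ± 13.98 to 2.03 ± 1.69 CPM in males and from 13.5 ± 10.2 to 1235 ± 233 CPM in females. Adult and fetal males overlapped in both genes. Fetal male 12, the lowest in each, held 33 reads of Cyp2c40 and 3 of Cyp2c69. The read ratio of Cyp2c40 to Cyp2c69 also changed, from between 1.302 and 3.11 in fetal females to between 0.437 and 0.605 in adult females, with no overlap.

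The change of the sex difference between stages is a description too, since it contains the adult contrast. The log2 ratio of male to female in adults minus that in fetuses was -6.86 ± 0.43 for Cyp2c40, -9.75 ± 0.59 for Cyp2c69 and -1.36 ± 0.40 for Cyp2c37. Without fetal female 22 those differences were -6.78, -9.66 and -1.35. For Cyp2c50 the difference of 2.59 ± 1.01 became 0.32 ± 0.77 without that library, and for Cyp2c29 that of 3.74 ± 1.03 became 1.51 ± 0.63. These last 2 genes did not pass the filter among fetal livers alone.

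Fetal livers of one sex varied widely in Cyp2c37, Cyp2c40 and Cyp2c69, and these genes varied together. The coefficient of variation between fetal males was 68.4% for Cyp2c37, 50.9% for Cyp2c40, 74.5% for Cyp2c69, 23.9% for Cyp2c70 and 6.69% for Cyp2c44, beside a median of 11.9% over genes of at least 1 CPM. Between fetal females it was 116%, 49.96%, 75.4%, 25.6% and 14.9%, beside 12.2%. Male 4 was the highest fetal male and female 21 the highest fetal female for Cyp2c37, Cyp2c40, Cyp2c69 and Cyp2c70. Male 12 was the lowest male for all of these, at 0.554, 4.57, 0.416 and 75.8 CPM, while its Cyp2c44 level of 59.3 CPM lay near the male median of 58.7. Summed hepatocyte markers in male 12 were 44489 CPM, near the low end of the fetal male range. Its summed erythroid markers were the highest of the fetal males at 5171 CPM, and its summed bile duct markers the lowest at 25.9 CPM. Its summed macrophage markers, at 499 CPM, and stellate and fibroblast markers, at 533 CPM, lay well inside the male ranges. Their part in its low levels was not tested.

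Across the 12 fetal males, log2 levels of Cyp2c40 and Cyp2c69 had a Pearson r of 0.99 (permutation p = 1e-05, the smallest that 100000 resamples can give, adjusted p = 5e-05) and a Spearman rho of 0.92 (permutation p = 9e-05). Across the 12 females r was 0.93 (permutation p = 1e-05, adjusted p = 5e-05) and rho 0.94 (permutation p = 3e-05). Leaving out the 2 livers farthest from the median of Cyp2c40 gave r of 0.94 and 0.93. The genes of this pair are near-identical in sequence, although a read was counted only where its alignment was unique, and all pairs share library and scaling.

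The relation extended beyond this most similar pair of members. Cyp2c40 and Cyp2c70 had r of 0.95 in males (permutation p = 0.0001, adjusted p = 0.0004) with rho of 0.78 (permutation p = 0.00414), and r of 0.85 in females (permutation p = 0.00064, adjusted p = 0.0018) with rho of 0.89 (permutation p = 0.00028). Without the 2 farthest livers r was 0.77 and 0.81. For Cyp2c37 and Cyp2c40 r was 0.90 in males (permutation p = 1e-05, adjusted p = 5e-05; rho 0.88, permutation p = 0.00038) and 0.69 in females (permutation p = 0.00904, adjusted p = 0.0151; rho 0.69, permutation p = 0.0151), with 0.89 and 0.55 without the 2 farthest.

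Of 10 pairs among the 5 detected members in each sex, 20 in one family, the 6 pairs without Cyp2c44 passed an adjusted p of 0.05 in each sex. The remaining 4 pairs, all with Cyp2c44, did not. The share of other gene pairs that would pass in the same livers is not given, so the count is not read as particular to these genes. By rank, Cyp2c37 and Cyp2c69 in females missed the threshold, with rho of 0.61 (permutation p = 0.04, adjusted p = 0.0667). Without male 12, which is 1 of 12 points in the male relation, the 6 male pairs still passed by r and 5 passed by rank, where 6 had passed with it, and r for Cyp2c40 and Cyp2c69 was 0.96. These fetal relations were examined after the levels had been seen.

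**Figure D4:**
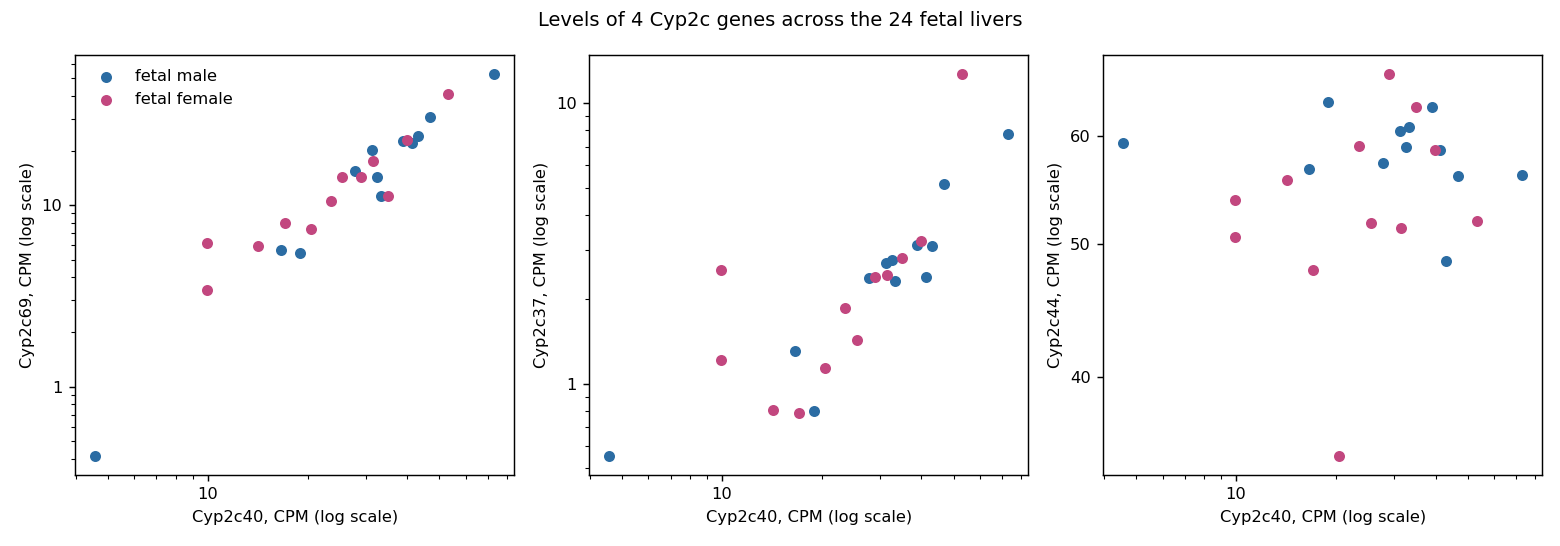
Level of Cyp2c69, Cyp2c37 and Cyp2c44 (vertical axes, CPM on log scales) against that of Cyp2c40 (horizontal axes, CPM on log scales) in 12 male and 12 female fetal livers, 1 point each. Cyp2c69 and Cyp2c37 climb with Cyp2c40 in both sexes, with r of 0.99 and 0.90 in males, and Cyp2c44 stays between 35.1 and 66.6 CPM across the whole range.

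Adult livers showed another arrangement. Between adult males the coefficient of variation was 9.11% for Cyp2c29, 11.3% for Cyp2c50 and 12.2% for Cyp2c44, beside a median of 18.8% over genes of at least 1 CPM. It was 72.5% for Cyp2c40 and 83.5% for Cyp2c69, whose male counts are low, and 27.2% for Cyp2c70. Between adult females all 10 members lay between 13.5% and 24.7%, beside a median of 20.2%.

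Of 45 pairs in each adult sex, 90 in one family, 2 passed an adjusted p of 0.05 in males and 3 in females. The share of other gene pairs that would pass is not given here either. Cyp2c50 and Cyp2c54 passed in both, with r of 0.89 in males (permutation p = 0.00019, adjusted p = 0.00472; rho 0.81, permutation p = 0.00219) and 0.89 in females (permutation p = 0.00018, adjusted p = 0.00472; rho 0.84, permutation p = 0.00124). Without the 2 farthest livers r was 0.68 and 0.63. Cyp2c29 and Cyp2c38 passed in males, with r of 0.92 (permutation p = 3e-05, adjusted p = 0.0027; rho 0.90, permutation p = 0.00019) and 0.86 without the 2 farthest.

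In females Cyp2c40 and Cyp2c69 had r of 0.88 (permutation p = 0.00021, adjusted p = 0.00472; rho 0.89, permutation p = 0.00026), with 0.76 without the 2 farthest. Cyp2c38 and Cyp2c54 had r of 0.91 in females (permutation p = 0.0004, adjusted p = 0.0072) but a rho of 0.54 (permutation p = 0.076), and r without the 2 farthest was 0.66, so that this relation leaned on few livers. In the 8 livers of each sex with at least 40% on genes no pair passed, with r of 0.95 for Cyp2c29 and Cyp2c38 in males (exact permutation adjusted p = 0.0848) and 0.90 for Cyp2c40 and Cyp2c69 in females (exact permutation adjusted p = 0.0982).

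**Figure D5:**
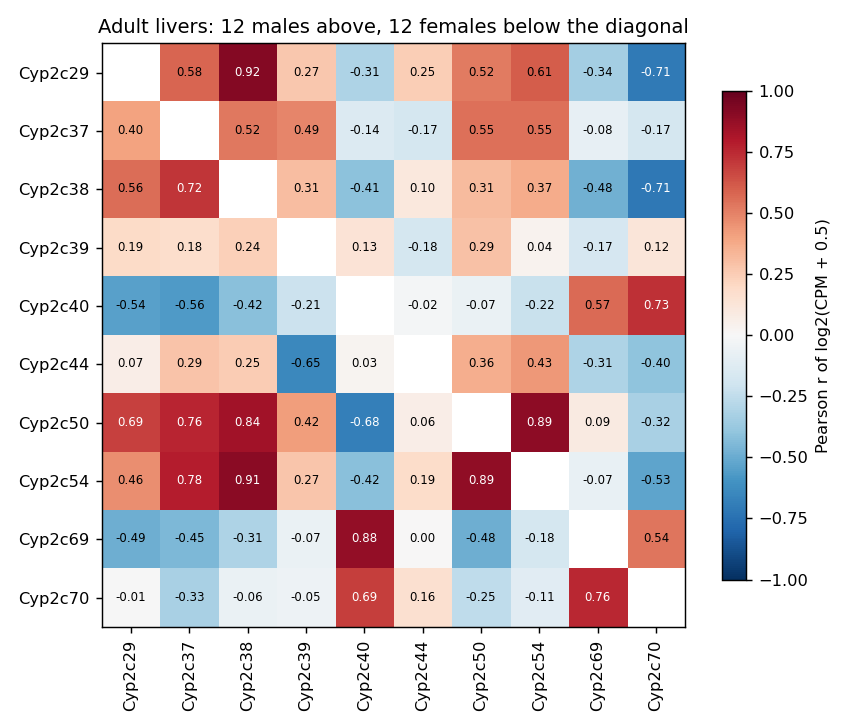
Pearson r of log2 levels for each pair of Cyp2c genes across 12 adult males (above the diagonal) and 12 adult females (below it), coloured from -1 to 1. Cyp2c50 and Cyp2c54 stand out in both sexes at 0.89, Cyp2c29 and Cyp2c38 in males at 0.92, and Cyp2c40 and Cyp2c69 in females at 0.88.

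As a description over 24 adult livers with the mean of each sex removed, and among 12454 genes of at least 1 CPM, the gene most like Cyp2c50 was Cyp2c54 (r = 0.83), followed by the growth hormone receptor gene Ghr (r = 0.83) and 1500017E21Rik (r = 0.83). For Cyp2c54 it was Cyp2c50, followed by Ror1 (r = 0.80) and the bile acid transporter gene Slc10a1 (r = 0.80). Cyp2c29 was most like Slc22a29, Rdh16 and Rnf14 (r from 0.80 to 0.79), and Cyp2c37 most like 9030619P08Rik, Etv6 and Clmn (0.77 to 0.73). Cyp2c38 was most like Abcc3, Ugt3a1 and Pacs2 (0.78 to 0.72), and Cyp2c39 most like Fbxl21, Zfp619 and Gyg (0.66 to 0.62).

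Cyp2c44 was most like Arl5a, Ugcg and Lmo2 (0.77 to 0.76), and Cyp2c70 most like Tm2d3, Calu and Ccbl2 (0.79 to 0.77). Cyp2c40 was most like Sdpr, Txnl1 and Rps24 (0.76 to 0.74), but r with Sdpr was 0.87 in males and -0.04 in females. Cyp2c69 was most like Rpl27a, Psmd2 and Ift122 (0.68 to 0.68). For Cyp2c39, Cyp2c40 and Cyp2c69 these orders lean on male livers with few reads, and for Cyp2c39 r with Fbxl21 was 0.78 in males and 0.32 in females.

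The other 6 Cyp2c rows were outside the chosen members and were tested in adult liver. Because that choice used the adult sex labels, the rows left out are not independent of it. Of 3 that passed the filter, Cyp2c68, 98.1% identical to Cyp2c40 over the coding sequence, was called higher in females, from 143 to 321 CPM in males and from 582 to 887 CPM in females (log2 ratio -1.78 ± 0.12, edgeR adjusted p = 1.8e-12). Cyp2c67, in the same group of near-identical genes, was called higher in males, from 161 to 360 CPM in males and from 138 to 209 CPM in females (log2 ratio 0.59 ± 0.10, edgeR adjusted p = 4.6e-05). Cyp2c55 was also called higher in males (log2 ratio 0.64 ± 0.17, edgeR adjusted p = 0.00464). The neighbouring genes Cyp2c68, Cyp2c40 and Cyp2c69 were thus higher in adult females and Cyp2c67 beside them higher in adult males. Of 50-base stretches, 43.3% of those of Cyp2c68 and 52.8% of those of Cyp2c67 also occur in transcripts of other genes.

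Cyp2c68 was the highest Cyp2c gene of fetal liver, at 223 ± 45.2 CPM per kb in males and 208 ± 32.6 CPM per kb in females, and its fetal sex difference was not called (log2 ratio 0.12 ± 0.11, edgeR adjusted p = 0.439). Like Cyp2c40 and Cyp2c69, it was lower in adult than in fetal males and higher in adult than in fetal females, with log2 changes of -0.84 ± 0.12 (edgeR adjusted p = 7.2e-09) and 1.01 ± 0.12 (adjusted p = 3.3e-11 in the same fit). Scaled to hepatocyte markers, the female change was 0.07. Cyp2c65 and Cyp2c66 had no read in any adult liver. The pseudogene Cyp2c53-ps had 166 reads in adult males and 8 in adult females and did not pass the filter in adult liver. Its annotation overlaps the first part of the annotated span of Cyp2c29 but ends before the start used for the upstream sequence.

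Among genes of the surrounding pathways, 25 of 43 other rows whose symbol starts with Cyp2 were tested in adult liver, of which 3 were higher in males and 6 in females, with a median log2 ratio of -0.03. That list also took in 8 rows of other P450 families, such as Cyp27a1. Within the Cyp2 family itself 21 of 35 rows were tested, with the same numbers called and a median log2 ratio of 0.10. The largest differences were in Cyp2a4, a steroid hydroxylase gene (log2 ratio -11.13 ± 0.20, edgeR adjusted p = 3.0e-26), Cyp2b13 (-10.85 ± 0.47, edgeR adjusted p = 9.0e-15), Cyp2b9 (-8.92 ± 0.25, edgeR adjusted p = 4.1e-19) and Cyp2d9, a steroid hydroxylase gene known as male-specific (5.37 ± 0.15, edgeR adjusted p = 8.9e-21). Among fetuses edgeR called 0 of 18 tested rows (16 of them Cyp2 family), with 0 at an unadjusted p under 0.05 and 0 called by DESeq2. Of 11 tested genes of electron transfer and heme supply, 1 was called in adults, Por, at 237 ± 74.7 CPM in males and 354 ± 64.4 CPM in females (log2 ratio -0.60 ± 0.14, edgeR adjusted p = 0.00302), and 0 in fetuses, where 5 had an unadjusted p under 0.05 and DESeq2 called 0.

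Of 13 genes of arachidonate epoxides, 5 were tested in adult liver and 2 were higher in males. These were Ephx2, which hydrolyses epoxides of arachidonic acid, at 1402 ± 74.9 CPM in males and 918 ± 120 CPM in females (log2 ratio 0.59 ± 0.06, edgeR adjusted p = 3.0e-09), and the phospholipase gene Pla2g6 (0.75 ± 0.09, edgeR adjusted p = 8.8e-08). Of the 10 tested among fetuses, edgeR and DESeq2 called 0, and 2 had an unadjusted p under 0.05. Of 22 transcription factor and receptor genes, 3 were higher in adult males and 4 in adult females. The largest differences were in Cux2, a repressor known from female liver (log2 ratio -6.07 ± 0.27, edgeR adjusted p = 4.0e-18), Bcl6, known as a male-biased repressor (1.79 ± 0.43, edgeR adjusted p = 0.0035), and Esr1 (-1.53 ± 0.095, edgeR adjusted p = 1.9e-14).

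Among fetuses 2 of 20 tested factors were called, both higher in males, the HNF6 gene Onecut1 (log2 ratio 0.82 ± 0.20, edgeR adjusted p = 0.00388) and Esr1 (0.53 ± 0.18, edgeR adjusted p = 0.0234). Beside the adult differences, 4 of 6 macrophage markers and 1 of 8 hepatocyte markers, Ahsg, were called higher in females, as were 1 of 5 sinusoidal endothelial markers, Lyve1, and Spp1, the 1 bile duct marker tested. Summed sinusoidal endothelial markers ranged from 458 to 529 CPM in males and from 504 to 614 CPM in females, and summed bile duct markers from 40.05 to 94.99 and from 47.6 to 134 CPM. The summed macrophage markers ranged from 368 to 670 CPM in males and from 492.97 to 1047 CPM in females. Summed erythroid markers, of which Alas2 was tested and called higher in males, ranged from 187 to 237 CPM in males and from 18.1 to 53.9 CPM in females. Their part in the adult sex differences was not tested.

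The bases before the annotated start of 8 members were at hand from RefSeq (GRCm38.p6), and Cyp2c44 and Cyp2c54 had no entry. The 150 bases before the start are printed for 3 pairs of close relatives. In 1 pair, Cyp2c40 and Cyp2c69, both genes were called higher in adult females, and in the other 2 pairs only 1 gene was. Capitals mark, on either strand, CAAAGTNCA, a motif of HNF4A, ATTGAT, the core bound by HNF6, and TATAAA, the TATA box. TTCNNNGAA, the STAT5 motif, was also searched.
Cyp2c40 (chr19:39812815-39812964, minus strand): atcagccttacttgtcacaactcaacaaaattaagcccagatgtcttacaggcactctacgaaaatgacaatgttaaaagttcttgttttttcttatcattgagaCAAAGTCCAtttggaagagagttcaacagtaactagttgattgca
Cyp2c69 (chr19:39886770-39886919, minus strand): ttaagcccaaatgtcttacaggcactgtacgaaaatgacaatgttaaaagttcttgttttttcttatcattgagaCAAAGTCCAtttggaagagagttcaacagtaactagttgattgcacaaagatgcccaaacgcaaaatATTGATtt
Cyp2c37 (chr19:39992274-39992423, plus strand): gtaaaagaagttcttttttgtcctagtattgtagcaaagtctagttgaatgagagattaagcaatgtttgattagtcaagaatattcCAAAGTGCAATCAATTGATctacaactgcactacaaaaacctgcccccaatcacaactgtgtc
Cyp2c50 (chr19:40089529-40089678, plus strand): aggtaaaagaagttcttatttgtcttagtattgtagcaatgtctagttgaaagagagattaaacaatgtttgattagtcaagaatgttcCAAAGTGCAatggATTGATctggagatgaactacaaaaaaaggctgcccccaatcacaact
Cyp2c38 (chr19:39463076-39463225, minus strand): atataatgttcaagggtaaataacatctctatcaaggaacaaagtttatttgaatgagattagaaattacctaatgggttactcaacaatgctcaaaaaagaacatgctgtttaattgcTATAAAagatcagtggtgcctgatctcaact
Cyp2c29 (chr19:39286935-39287084, plus strand): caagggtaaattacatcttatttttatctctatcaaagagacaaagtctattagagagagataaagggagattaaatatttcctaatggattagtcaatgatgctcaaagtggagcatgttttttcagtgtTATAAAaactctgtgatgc

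Within 250 bases before the start, CAAAGTNCA occurred in 5 of the 8 members, Cyp2c37, Cyp2c40, Cyp2c50, Cyp2c69 and Cyp2c70, and in 1.19% of 32850 upstream regions of the same length. In Cyp2c40 it began 45 bases and in Cyp2c69 75 bases before the annotated start, within upstream sequences that were 98.6% identical over 220 aligned bases. In Cyp2c37 and Cyp2c50 it began 63 and 61 bases before the start. ATTGAT occurred in 3 members, Cyp2c37, Cyp2c50 and Cyp2c69, and in 6.72% of all regions, and in Cyp2c37 its 2 matches overlap each other and 1 of them lies against the HNF4A match. The Cyp2c40 window ends at its annotated start, before the stretch that corresponds to ATTGAT in Cyp2c69. TATAAA occurred in 3 members, Cyp2c29, Cyp2c38 and Cyp2c70, and in 12.4% of regions. TTCNNNGAA occurred in 0 of 8 members and in 7.02% of regions, which says only that these letters are not in this window.

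CAAAGTNCA was found before Cyp2c40, Cyp2c69 and Cyp2c37, whose adult levels were higher in females, and before Cyp2c50 and Cyp2c70, whose levels were similar in both sexes. Outside the members it was found before Cyp2c68, called higher in adult females, and Cyp2c67, called higher in adult males. It was also found before Cyp2c65, which had no read in adult liver, but not before Cyp2c55 or Cyp2c66. Upstream sequences of Cyp2c37 and Cyp2c50 were 87.8% identical over 245 aligned bases, with adult log2 ratios of -1.38 and -0.01. Those of Cyp2c29 and Cyp2c38 were 82.0% identical over 228, with adult log2 ratios of 0.15 and -2.35. Those of Cyp2c38 and Cyp2c39 were 89.6% identical over 221, with adult log2 ratios of -2.35 and -3.48.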

How the data were processed

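Libraries of ES lines and livers were made with a stranded total RNA kit, and those of eight-cell embryos with a single-cell protocol. Per the labels and the study's methods, the authors mapped reads to mm10 with TopHat2 (2.0.4), Bowtie2 (2.1.0) and SAMtools (0.1.18), removed duplicates with Picard and assigned reads to genes with HTSeq. The strand setting is not given in the sources used here. The deposited files hold raw counts per gene for 64 libraries, and 5 summary lines per file were left out. The members and lists were chosen with earlier results of these data known.

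Counts were scaled by TMM and tested with edgeR (4.0.16, quasi-likelihood, filterByExpr, robust fit) within each stage and over all 48 livers with a mean per stage and sex. A call needed a Benjamini-Hochberg adjusted p under 0.1 and a log2 ratio beyond 0.5. SE was the log2 ratio divided by the square root of F. DESeq2 (1.42.0) was an alternative. The fits were tested on simulated counts. CPM of livers were put on 1 TMM scale over all 48. Correlations used log2(CPM + 0.5), two-sided permutations and adjustment over all pairs and both sexes. The list of symbols starting with Cyp2 was split by family after its values were seen. Named genes were all Cyp2c rows, up to 4 called genes of each list by size of the log2 ratio, and the 3 genes most like each member in adult liver. A result of the list of transcription factors and receptors that the rule would name is not reported here. Transcript lengths and coding sequences came from GENCODE vM21 (GRCm38). Intervals and floors cover counting error only. Livers come from separate animals only as far as the labels name them separate samples, so p-values measure the spread between these samples.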

Additional observations from a re-analysis of the deposited data

Results flagged for a closer look

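Among eight-cell embryos, male embryo 2 stood apart for Cyp2c44 at 0.158 CPM, which is 1 read, with 0 in the other 5 male embryos. This was the only group of 4 to 10 samples in which a member varied. A single read among values of 0 always stands apart, so nothing is read from it.

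In 5 members the sex difference was called as of another size in adult than in fetal liver, beside 13.7% of the 13026 genes tested. Since the adult contrast was used to choose the members, this is a description and nothing is read from the count. The log2 ratio of male to female in adults minus that in fetuses was -9.75 for Cyp2c69, -6.86 for Cyp2c40 and -1.36 for Cyp2c37. It was 3.74 for Cyp2c29 and 2.59 for Cyp2c50. Without fetal female 22, which held 54 of 65 fetal female reads of Cyp2c29 and 22 of 25 of Cyp2c50, the values for those 2 genes were 1.51 and 0.32.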

How the results depend on the processing

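Without an expression filter the fetal sex difference had 1057 calls in place of 600 and the adult one 1518 in place of 984, and with no fold threshold 4807 and 3400. With the percentage of reads falling on genes as a covariate, which nearly separates the fetal sexes, the fetal count was 29. The fetal log2 ratios then turned to -0.78 for Cyp2c37, -0.088 for Cyp2c40, -0.037 for Cyp2c44, -0.19 for Cyp2c69 and -0.39 for Cyp2c70, none called. Leaving out fetal female 14, female 22 or male 12 gave between -0.035 and 0.16 for Cyp2c37 and between -0.021 and 0.099 for Cyp2c70, the lowest of each without female 14. With all 48 livers in one fit Cyp2c70 was at -0.0095. That fit and the one without a filter each called 2 members in fetal liver in place of 0, Cyp2c29 and Cyp2c50, whose fetal female reads are mostly of female 22. The adult correlations counted 8 pairs with plain CPM and 0 in libraries with at least 40% on genes, where 8 livers per sex remain, in place of 5. Of the fetal calls 82.2% were higher in males, 69.9% in the fit of all 48 livers, 61.0% with no filter and 91.5% without female 14. Scaling to hepatocyte markers moved the median log2 ratio of adult to fetal over all genes from -0.05 to -0.89 and the share of calls higher in adults from 47.3% to 18.3%, while each member kept its direction in each sex. Leaving out each ES line in turn gave a summed level between 0.866 and 0.963 CPM. Fetal females 14 and 22 and male 12 were left out after seeing the data.

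With the replicate number as a block (replicate block), adult against fetal liver had 8753 calls in place of 8742. The numbers did not pair the livers, since same-numbered fetal and adult livers had correlations of deviations between -0.08 and 0.05, and 1 of 24 correlated best with its own number.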
